A study of Capra hircus with 8 samples.

Results

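The small nucleolar RNAs (snoRNAs) of goat mammary gland cells were taken as all rows that the deposited small RNA table types as snoRNA, which gave 333 families of 5093 features in all. They held 329017 of the 107311328 reads of 8 libraries. By name, 98 were box C/D families (SNORD names), 69 were box H/ACA families (SNORA names) and 20 had older U, ACA or MBII names. The other classes were 16 small Cajal body RNAs (scaRNAs, SCARNA names), 114 families named after other organisms and 16 with other names. A box C/D, box H/ACA or Cajal body RNA with an older name stayed with the older names.

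The cells came from the mammary gland of Lanshan dairy goats and were cultured in 3D, and each of 4 groups has 2 libraries. Virus carrying the circular RNA cirRNA28250 gave the overexpression group (labelled cRNA28250), and the knockdown group (labelled cKDmix) had cirRNA28250 inhibited. The controls are labelled c3NC and c5NC and are written 3NC and 5NC here. The series text lists 5NC beside overexpression and 3NC beside knockdown, and the groups were compared in that order, since the pairing is not stated outright. The labels give no vector, promoter, dose, time or animal age. Whether 2 libraries of one group stem from different cultures is not said, so a p-value here speaks only of library-to-library spread, part or all of which may be technical. The level of cirRNA28250 itself was not analysed here, so the labels were not checked by it.

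SnoRNAs guide enzymes to ribosomal RNA in the nucleolus: box C/D RNAs direct ribose methylation and box H/ACA RNAs direct pseudouridylation. A few, such as U3, U8, U13 and the families SNORD14, SNORD22, SNORA73, SNORA62 and SNORA63, are needed for cutting or folding the ribosomal RNA precursor, and scaRNAs direct the same modifications on spliceosomal RNAs. In mammals most snoRNAs are cut from introns of ribosomal protein genes, translation factor genes and non-coding host genes such as GAS5 and SNHG1. Small RNA libraries favour short molecules, so a count here can stand for fragments of a snoRNA as well as for the whole RNA, and counts are not compared between families as molar levels.

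Libraries differed before any family was considered. Totals ran from 6588354 to 32066029 reads and snoRNA reads from 10061 in the second overexpression library to 94025 in the first knockdown library. In the first knockdown library 27.3% of all reads were ribosomal RNA, against 1.14% to 5.21% in the other libraries, and in the second knockdown library 43.9% were predicted piRNAs, against at most 0.545% elsewhere. The first 5NC library carried 3528 RPM (reads scaled to 1000000 reads of the library) of epithelial marker miRNAs (8 of 10 listed; miR-205 and miR-203 were not analysed here) and 92.1 of mesenchymal ones (4 of 5). The other libraries had 8.83 to 175.9 epithelial and 144.5 to 4512 mesenchymal marker RPM, so epithelial markers were below mesenchymal ones in 7 of the 8 libraries. Blood markers (4 of 6) ranged from 56.5 to 526 RPM, and the single endothelial and liver markers from 43.9 to 483 and from 4.11 to 336. Muscle markers (4 of 4) ranged from 19.3 to 420 RPM and stood at 31.4 and 420 in the 3NC libraries. Fewer cells of a type and less RNA per cell cannot be told apart in such bulk samples. Over the 118 families seen in all 8 libraries, the rank correlation of shares was 0.88 between the 3NC libraries, 0.77 between the overexpression libraries, 0.75 between the knockdown libraries and 0.66 between the 5NC libraries. The 2 libraries of 3NC, and those of knockdown, were closer to each other than to any other library. The overexpression libraries and the second 5NC library were closer to libraries of other groups than to their partners. 3NC, the second 5NC library and overexpression correlated with each other at 0.76 to 0.88. The first 5NC library stood at 0.42 to 0.48 with all but its partner, and knockdown at 0.43 to 0.60 with the other groups. The correlation is a description across families, which share library and depth within each pair.

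The snoRNA share of all reads was 0.343% and 0.293% in the 3NC libraries, 0.312% and 0.378% in the 5NC libraries, 0.408% and 0.146% in the overexpression libraries, and 1.43% and 0.0373% in the knockdown libraries. The knockdown libraries were thus the highest and the lowest of the 8. Exact 95% binomial intervals ran from 1.42% to 1.44% and from 0.0366% to 0.0380% in these 2 libraries, and such intervals and floors cover counting error only, since PCR copies were not told apart by molecular identifiers. The mean share in knockdown over 3NC was 1.20 on the log2 scale against a spread of 3.72, and it was -3.09 without the first knockdown library, so no direction holds beyond the spread. Without the family SNORD57 the shares of the knockdown libraries were 0.472% and 0.0328%.

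Within the snoRNA reads, box C/D families made up 59.0% and 55.3% in 3NC, 55.5% and 62.8% in 5NC, 66.9% and 45.8% in overexpression, and 91.4% and 77% in knockdown. The knockdown libraries were above the other 6 in this share of SNORD names. It leaves out box C/D RNAs with U names, such as U3. U3 alone held 30.6% in the first 5NC library, so no order of all box C/D RNAs is read from this share. Box H/ACA families made up 11.7% and 13.2% in 3NC, 6.52% and 12.0% in 5NC, 8.83% and 12.3% in overexpression, and 3.86% and 4.62% in knockdown, where both libraries were below the other 6. The knockdown over 3NC difference in the H/ACA share was -1.55 on the log2 scale, with a spread of 0.217. A 2 against 2 exact permutation test cannot give a two-sided p below 0.333. SNORD57 weighed on these shares. With it taken out of the total, the H/ACA share was 11.7% and 5.25% in knockdown and 12.1% and 13.8% in 3NC. These 2 groups still did not overlap, but the first knockdown library came close to 3NC. That library then lay above the first 5NC library (6.80%) and the first overexpression library (9.35%). Both knockdown libraries were thus no longer below the other 6. The share of SNORD names without SNORD57 was 73.9% and 73.8% in knockdown and 43.9% to 65.0% in the other 6 libraries. Families with U, ACA or MBII names held 35.4% of the snoRNA reads in the first 5NC library and 3.15% to 19.3% in the others.

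**Figure D1:**
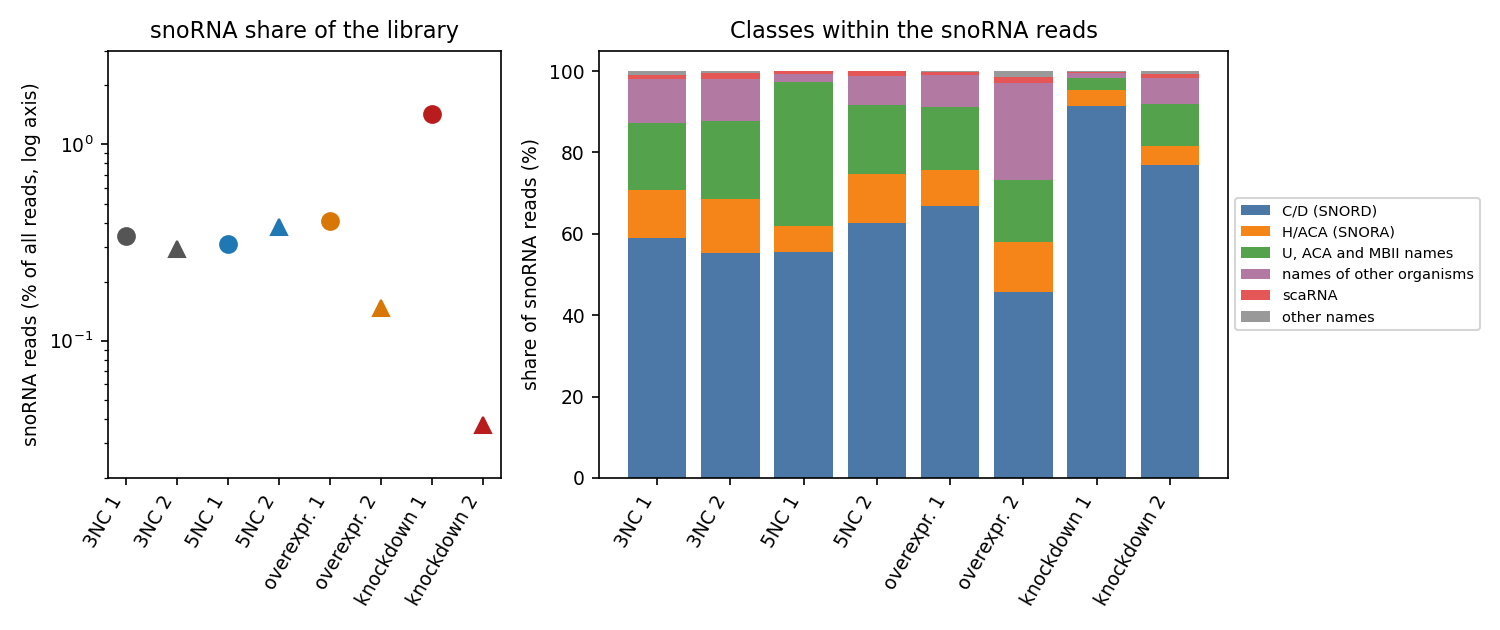
The left panel plots snoRNA reads as a percent of all reads (log axis), 1 point per library with its group's colour; the knockdown points are the highest (1.43%) and the lowest (0.0373%). The right panel stacks the classes of family names as percents of the snoRNA reads of each library. The C/D class (SNORD names) reaches 91.4% and 77% in the knockdown libraries.

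Detection followed the class of name. Of the 333 families, 118 were seen in all 8 libraries, 74 in 1 library, and 98 had under 10 reads over all libraries. In all 8 libraries were 66 of the 98 C/D families (median total 351 reads), 30 of the 69 H/ACA families (median 101) and 11 of the 20 U, ACA and MBII names, but 7 of the 114 families named after other organisms (median 5), of which 55 were seen in 1 library. Libraries held 192 to 222 families each. A family at 0 reads can still have had up to 3 reads' worth, which is 0.0298% of snoRNA reads in the shallowest library and 0.00319% in the deepest.

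The 5 most abundant families of a library carried 41.3% to 58% of its snoRNA reads outside the first knockdown library and 77.5% in it. SNORD104, which guides methylation of large-subunit ribosomal RNA, held 20.8% and 15.3% of snoRNA reads in 3NC, 1.59% and 16.5% in 5NC, 18.9% and 14.5% in overexpression, and 4.13% and 12.0% in knockdown. It was the most abundant family in 5 libraries, and the first 5NC library, at 1.59%, was the lowest of the 8. U3, the snoRNA of the earliest cleavages of the ribosomal RNA precursor, held 8.99% and 9.37% in 3NC, 30.6% and 8.34% in 5NC, 7.57% and 5.51% in overexpression, and 0.95% and 5.25% in knockdown. It led the first 5NC library, and both knockdown libraries were below the other 6, but not once SNORD57 was taken out of the total (2.87% and 5.98% in knockdown, 5.71% in the second overexpression library). SNORD57, a guide for the small subunit, held 3.26% and 4.44% in 3NC, 4.14% and 3.49% in 5NC, 5.47% and 3.49% in overexpression, and 66.9% and 12.1% in knockdown, where it was first in both libraries. The effective number of families (the exponential of the Shannon entropy of the shares) was 7.08 in the first knockdown library and 23.5 to 40.3 in the others; without SNORD57 it was 54.7 in that library.

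SNORD43, another small-subunit guide, held 9.64% and 6.75% in 3NC, 5.55% and 4.39% in 5NC, 17.7% and 5.75% in overexpression, and 1.03% and 3.78% in knockdown. SNORD50, a large-subunit guide from the host gene SNHG5, held 3.67% to 9.24% outside knockdown and 0.592% and 0.995% in it. SNORD20, a small-subunit guide from an intron of the nucleolin gene, held 1.41% to 3.64% outside knockdown and 0.0989% and 0.669% in it. All 3 families were thus lowest in the knockdown libraries as shares of snoRNA reads, and also without SNORD57 in the total. SNORD14, which guides methylation and also takes part in precursor cleavage, held 1.80% to 4.79% outside knockdown and 0.340% and 2.58% in it, so the groups overlapped.

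H/ACA families were less abundant. SNORA53, a large-subunit guide and the most abundant of them, held 3.23% and 1.74% in 3NC, 0.245% and 1.34% in 5NC, 1.77% and 3.63% in overexpression, and 0.0436% and 0.151% in knockdown. SNORA44, a small-subunit guide from the host gene SNHG12, held 0.567% to 2.40% outside knockdown and 0.671% and 0.276% in it, so the groups overlapped. SNORA74, SNORA21 and SNORA23, large-subunit guides, held 0.0816% to 1.06% outside knockdown and 0.0167% to 0.379% in it. Of these 3, SNORA23 was lower in both knockdown libraries (0.136% and 0.0167%) than in the other 6 (0.328% to 0.795%), but without SNORD57 in the total the first knockdown library, at 0.412%, lay above the lowest of the 6 (0.342%). SNORA67, a small-subunit guide, was below the other 6 libraries at 0.0808% and 0.243%, and so it was without SNORD57 in the total. SNORA57, another, was below them at 0.117% and 0.0502%, but without SNORD57 its 0.354% in the first knockdown library exceeded 0.198% in the first 3NC library. SNORA73 held 0.124% and 0.636% in knockdown against 0.279% to 0.902% elsewhere and overlapped.

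**Figure D2:**
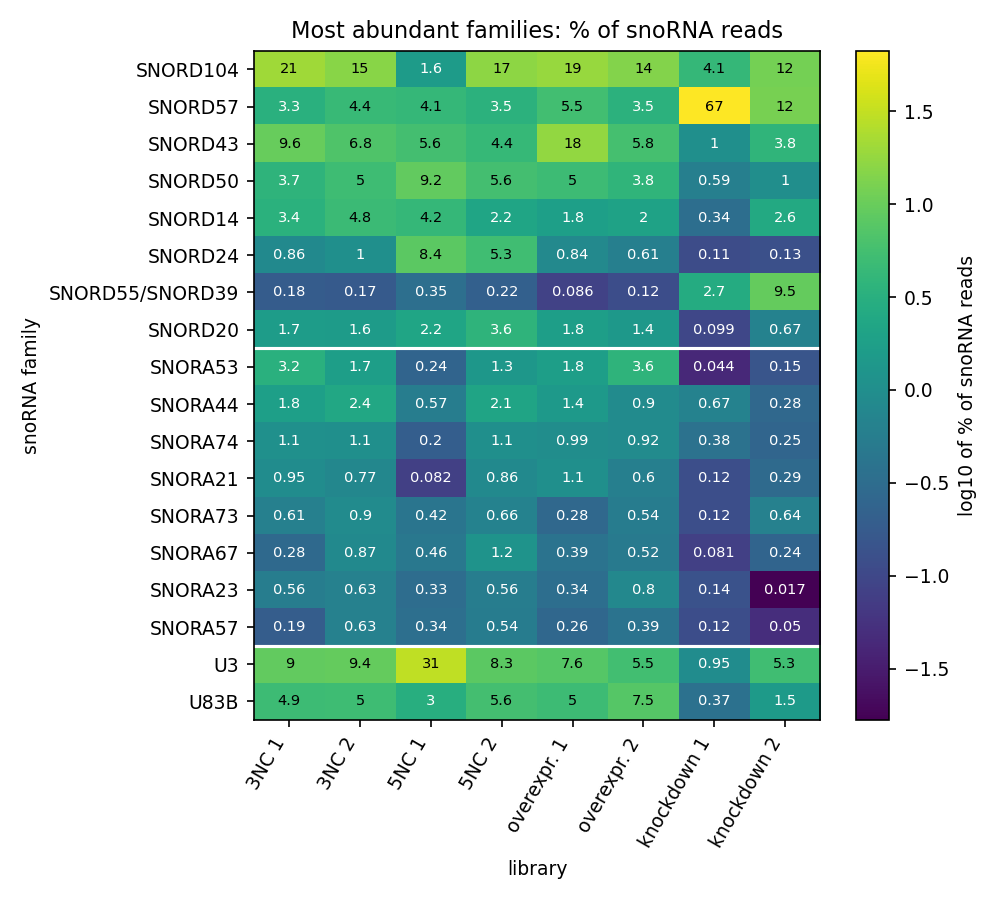
Percent of snoRNA reads in each of the 8 libraries (columns) for the 8 C/D and 8 H/ACA families with the highest mean share and for U3 and U83B (rows, white lines between classes); colour is log10 of the percent, which is printed in each cell. SNORD57 reaches 66.9% in the first knockdown library, U3 reaches 30.6% in the first 5NC library, and SNORD104 stands at 1.59% there.

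Knockdown was compared with 3NC across all features, and no snoRNA family passed edgeR's quasi-likelihood test at an adjusted p of 0.05; 0 of the 957 features tested did (0%). Of the 333 families 165 passed the filter on low counts, and the lowest adjusted p among them was 0.237. At an unadjusted p under 0.05 there were 31 of 165 families, 30 higher and 1 lower, or 18.8% against 15% of all features tested. This count rests on the TMM scaling: with totals of named features, all reads or snoRNA reads as library size it was 9 of 165 each time (5 higher, 4 lower; 5.45%), against 15.2%, 15.9% and 17.2% of all features. DESeq2 called 24 families, 23 higher and 1 lower, with 13.9% of all features that had an adjusted p called. The 2 knockdown libraries differ widely in total makeup, and the scaling sets the centre: the median log2 difference of the tested families was 1.22 with TMM factors, -0.13 per all reads and -0.45 per snoRNA reads, where the median of all features was 0, -1.65 and -1.62. Log2 differences below are with TMM factors, with their SE, and the shares beside them need no such factor.

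The family with the lowest p was SNORD55/SNORD39, whose member SNORD55 guides the large subunit. It had 51 and 67 reads in 3NC, 171 and 101 in 5NC, 44 and 12 in overexpression, and 2558 and 1134 in knockdown. That was 0.184% and 0.175% of snoRNA reads in 3NC and 2.72% and 9.48% in knockdown, above all other libraries, which reached at most 0.349%. It stood at 388 and 35.4 RPM of all reads in knockdown and at 1.74 to 10.9 in the other 6, so it was higher on both scales. The log2 difference was 6.63 ± 1.15 (edgeR adjusted p = 0.237). It was 6.25 without the first and 6.58 without the second knockdown library. Leaving out any other library gave 6.18 to 6.47.

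SNORD57 had 903 and 1705 reads in 3NC and 62945 and 1451 in knockdown. Its log2 difference of 6.03 ± 1.52 (edgeR adjusted p = 0.261) was 2.18 without the first knockdown library and 6.77 without the second. SNORD57 stood at 9554 RPM of all reads in the first knockdown library and at 45.3 in the second, which is the lowest of the 8, while the other 6 held 50.9 to 223. The library that made up most of the difference is also the one with 27.3% ribosomal RNA, and the part of that in the result was not tested.

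SNORD110, a small-subunit guide, had 13 and 47 reads in 3NC and 487 and 358 in knockdown, with a log2 difference of 5.67 ± 1.27 (edgeR adjusted p = 0.237). Its 0.518% and 2.99% in knockdown exceeded 3NC (0.0469% and 0.122%), but the first 5NC library reached 0.575%. SNORD100, another small-subunit guide, had 0 and 0 reads in 3NC and 149 and 52 in knockdown, which made its mean share of snoRNA reads at least 31.8-fold higher than the floor of 3 reads per library (17-fold for the first knockdown library alone and 46.6-fold for the second). SNORD15, a large-subunit guide, held 0.476% and 0.784% in 3NC and 1.80% and 5.08% in knockdown, above the other 6 libraries, with a log2 difference of 4.08 ± 1.13 (edgeR adjusted p = 0.261). On the scale of all reads SNORD15 overlapped, at 16.3 and 23.0 RPM in 3NC and 256 and 18.9 in knockdown. Together with SNORD55/SNORD39 and SNORD57 these were the 5 families of lowest p among those higher in knockdown.

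On the other side, SNORA53 had 894 and 668 reads in 3NC and 41 and 18 in knockdown, a log2 difference of -3.11 ± 1.26 (edgeR adjusted p = 0.307). It was the only lower family that DESeq2 called, with an adjusted p of 0.0372, and its knockdown libraries were below the other 6 on both scales. SNORD19 had 26 and 43 reads in 3NC and 0 and 1 in knockdown. SCARNA3 had 38 and 46 against 1 and 3. SCARNA20 had 18 and 8 against 0 and 0, and SNORA41 had 13 and 4 against 0 and 0. These 4 families rest on few reads, and none had an edgeR adjusted p under 0.392.

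**Figure D3:**
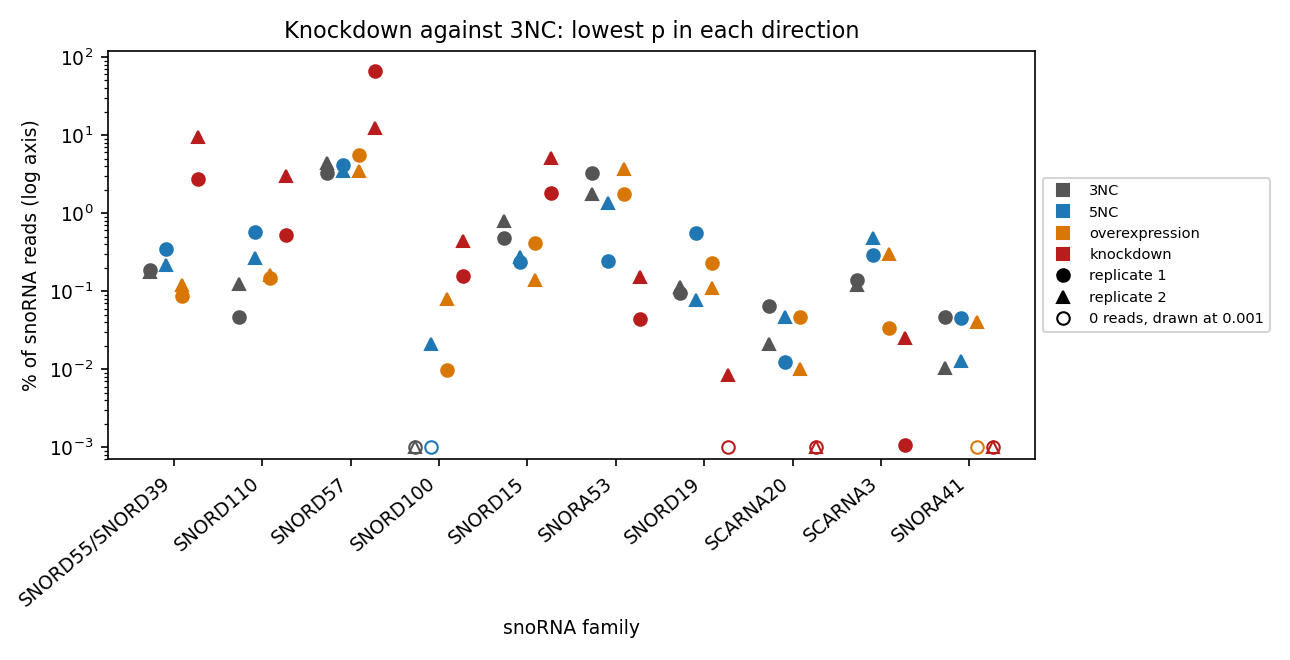
Percent of snoRNA reads (log axis) in every library for the 5 families with the lowest p in each direction of knockdown against 3NC; circles are replicate 1, triangles replicate 2, and open symbols mark 0 reads. SNORD55/SNORD39 stands at 2.72% and 9.48% in knockdown and at most 0.349% elsewhere, and SNORA53 at 0.0436% and 0.151% in knockdown.

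Libraries were also compared family by family with no fit. As shares of snoRNA reads, 53 of the 333 families were higher in both knockdown libraries than in both 3NC libraries and 65 were lower, where 2.72% and 9.17% of all 4786 named features were, most of them with few reads. With at least 100 reads in these 4 libraries, 28 of 100 families were higher, where 10.3% of all features with that depth were, and 42 of 100 were lower, where 42.2% were. The share that was lower was thus near the background. Of the 53 higher families 30 were C/D and 11 H/ACA, and of the 65 lower ones 22 were C/D and 24 H/ACA. Counted in RPM of all reads, 19 families were higher and 56 lower, where 1.5% and 9.4% of named features were. Among the 100 deeper families these were 4 and 30, where 3.91% and 41.7% of features of that depth were. Without SNORD57 in the total, a setting chosen after seeing the data, 76 were higher and 50 lower, where 4.24% and 8.19% of named features were. Among the 100 deeper families these were 39 and 31, where 16.2% and 37.2% of features of that depth were.

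Against all other 6 libraries, 31 families were higher in both knockdown libraries and 24 lower as shares of snoRNA reads, where 1.5% and 3.55% of named features were. Among the 135 families with at least 100 reads these were 21 and 23, against 4.82% and 18.6% of features of that depth. Without SNORD57 in the total 45 were higher and 16 lower (2.13% and 2.78% of named features), 29 and 15 of the 135 deeper ones, against 7% and 14.7%. Higher families included SNORD57, SNORD55/SNORD39, SNORD15, SNORD65, SNORD95, SNORD36, SNORD83 and SNORA48. SNORD65, a small-subunit guide, held 1.89% and 0.385% in knockdown and 0.0354% to 0.181% elsewhere. SNORD95, a large-subunit guide, held 1.03% and 0.979% against 0.213% to 0.785%. In RPM of all reads, 7 families were higher in both knockdown libraries than in the other 6 (0.794% of named features); 3 of the 135 deeper families were, near the 1.95% of features of that depth. The 7 were SNORD55/SNORD39, SNORD37, SNORD100, SNORD27, SNORD89, SNORA64/SNORA10 and a family named after Tetrahymena. SNORD37, a large-subunit guide, had 70 and 716 reads in knockdown, which was 10.6 and 22.3 RPM against 1.6 to 5.81 elsewhere. The 11 lower ones on that scale (2.65% of named features; 10 of the 135 deeper families, against 13.4%) were SNORD19, SNORD20, SNORD62, SNORD102, U83B, SNORA13, SNORA53, SNORA55, SNORA81, SCARNA3 and SCARNA20. U83B had 52.4 and 5.74 RPM in knockdown and 93.3 to 210 elsewhere.

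Some families that lie in introns of 1 host gene in human differed from each other across libraries, and others lay on the same side. These groups were chosen after their values were seen, and hosts are known from human genes. From RPL7A, a large-subunit ribosomal protein gene, come SNORD24 and SNORD36. SNORD24 had 238 and 398 reads in 3NC, 4119 and 2468 in 5NC, 425 and 61 in overexpression, and 107 and 15 in knockdown, while SNORD36 had 50 and 81, 9 and 42, 131 and 4, and 304 and 106. The ratio of SNORD24 to SNORD36 was 4.76 and 4.91 in 3NC, 457.7 and 58.8 in 5NC, 3.24 and 15.2 in overexpression, and 0.352 and 0.142 in knockdown. It was below 1 in the 2 knockdown libraries and above 3 in the other 6. A ratio within a library does not depend on its total, though both RNAs can be fragmented to unequal degrees.

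SNORD43 and SNORD83 come from RPL3, another large-subunit protein gene. Their ratio was 65.1 and 112.7 in 3NC, 34.5 and 41.2 in 5NC, 642.9 and 144.8 in overexpression, and 3.40 and 5.20 in knockdown. The knockdown libraries were again below the other 6, and the overexpression libraries above, although the second overexpression library has 4 reads of SNORD83. In knockdown minus 3NC, SNORD83 had a log2 difference of 4.06 ± 1.22 (edgeR adjusted p = 0.283) and SNORD43 of -0.24 ± 0.93 (edgeR adjusted p = 0.938). U83B, the other RPL3 family, was on the side of SNORD43 at -0.92 ± 0.94. SNORD57 and SNORD56, both from the NOP56 gene of a C/D core protein, had a ratio of 242.1 in the first knockdown library, 7.48 in the second and 7 to 39 in the other 6. This ratio was therefore high in 1 knockdown library and not in the other. In knockdown minus 3NC, SNORD56 had a log2 difference of 2.59 ± 1.12, on the same side as SNORD57 and SNORD110 of this gene, and SNORA51 one of -1.82 ± 1.55, with none past edgeR's test.

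**Figure D4:**
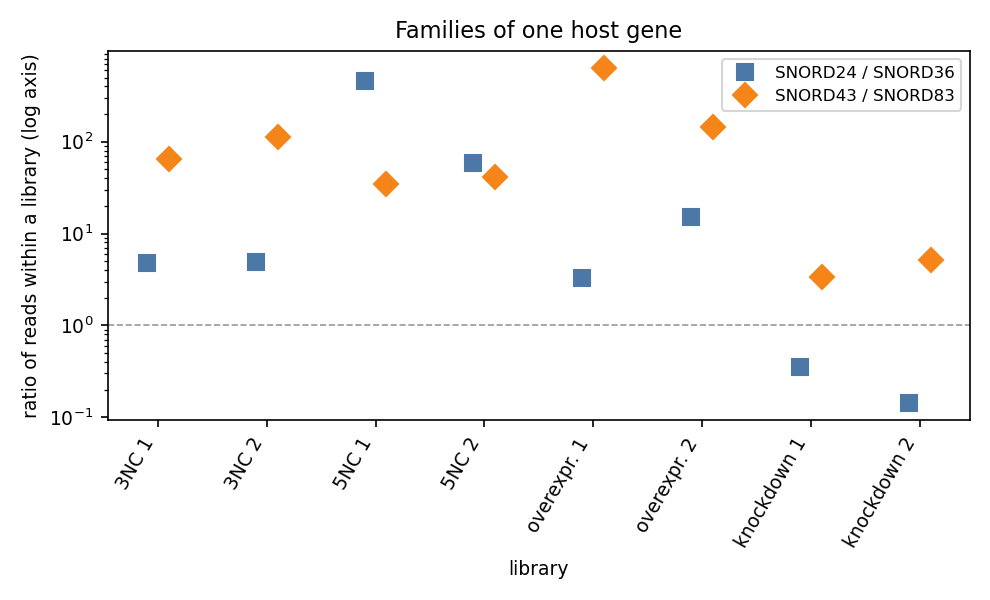
Ratio of reads (log axis) of SNORD24 to SNORD36 and of SNORD43 to SNORD83 in each library; each pair shares a host gene in human, and the dashed line marks equal reads. Both ratios are lowest in the knockdown libraries (0.352 and 0.142, 3.40 and 5.20), and SNORD24 to SNORD36 peaks at 457.7 in the first 5NC library.

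Overexpression was set against 5NC, and 5NC against 3NC as a comparison of the controls. Both use the 5NC libraries, so their values are given side by side and no overlap is read from them. No snoRNA family passed edgeR's test in either (0% of 957 features), with a lowest adjusted p of 0.47 and 0.568. At an unadjusted p under 0.05 there were 6 of 165 families in overexpression minus 5NC (2 higher, 4 lower; 8.46% of all features) and 8 in 5NC minus 3NC (6 higher, 2 lower; 7.42%). DESeq2 called 4 families in the first (Z101 and sR53 higher, SNORD24 and SNORD28 lower; 5.45% of features) and 1 in the second (Z101 lower; 3.16%).

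SNORD24, a large-subunit guide, held 8.40% and 5.25% of snoRNA reads in 5NC, 0.835% and 0.606% in overexpression, and 0.859% and 1.04% in 3NC. The 5NC libraries stood above all others, and overexpression lay near 3NC. The log2 difference was -3.66 ± 1.14 for overexpression minus 5NC (edgeR adjusted p = 0.47) and 3.08 ± 1.11 for 5NC minus 3NC (edgeR adjusted p = 0.568). Without the first 5NC library, which carries most of the epithelial marker miRNAs, these were -3.42 and 2.80. The part of the markers in the result was not tested.

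SNORD28, from the host SNHG1, had 395 and 82 reads in 5NC, 20 and 4 in overexpression and 18 and 29 in 3NC, with log2 differences of -3.99 ± 1.32 and 2.99 ± 1.25. They were -2.69 and 1.64 without the first 5NC library. SNORD42, from RPL23A, had 752 and 113 reads in 5NC, 51 and 20 in overexpression and 26 and 32 in 3NC, with log2 differences of -2.92 ± 1.30 and 3.51 ± 1.33, or -1.27 and 1.77 without the first 5NC library. SNORD44, from GAS5, had 633 and 132 reads in 5NC and 104 and 6 in overexpression, a log2 difference of -2.95 ± 1.29 that was -1.62 without that library. The sizes for SNORD28, SNORD42 and SNORD44 thus lean on the first 5NC library, and those for SNORD24 and U13 less. U13, a precursor processing snoRNA, had 198 and 128 reads in 5NC and 18 and 6 in overexpression, a log2 difference of -3.25 ± 1.26, or -3.10 without the first 5NC library.

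Among those higher in overexpression, SNORD123 had 524 and 63 reads against 3 and 76 in 5NC, a log2 difference of 2.78 ± 1.52. Its shares of 1.03% and 0.626% exceeded those of 5NC (0.00612% and 0.162%), and 3NC held 0.711% and 0.451%. Z101 had 35 and 148 reads in overexpression, 0 and 2 in 5NC and 212 and 182 in 3NC, and sR53 had 8 and 53 in overexpression, 0 and 2 in 5NC and 5 and 31 in 3NC. SNORD127 had 2 and 1 reads in overexpression and sR36 had 19 and 6. For Z101, sR53 and SNORD123 the 5NC libraries stood below both overexpression and 3NC. Knockdown held 0.00106% and 0.176% of snoRNA reads for Z101, 0.0106% and 0.125% for sR53, and 0.0234% and 0.0753% for SNORD123. For SNORD123 the knockdown shares lay between those of the 5NC libraries, so low shares were not particular to 5NC. In the controls, SNORA7 had 240 and 242 reads in 5NC and 18 and 41 in 3NC (log2 2.79 ± 1.22), and SNORD86 had 115 and 15 against 0 and 0, at least 14.3-fold higher in mean share (25.2-fold for the first 5NC library alone and 3.43-fold for the second). SCARNA14 had 2 and 3 reads in 5NC and 31 and 67 in 3NC (log2 -4.42 ± 2.23), SNORD127 had 0 and 0 against 10 and 19, and the Fungal small nucleolar RNA U3 family had 69 reads in 1 of the 3NC libraries and 0 in the other and in 5NC.

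**Figure D5:**
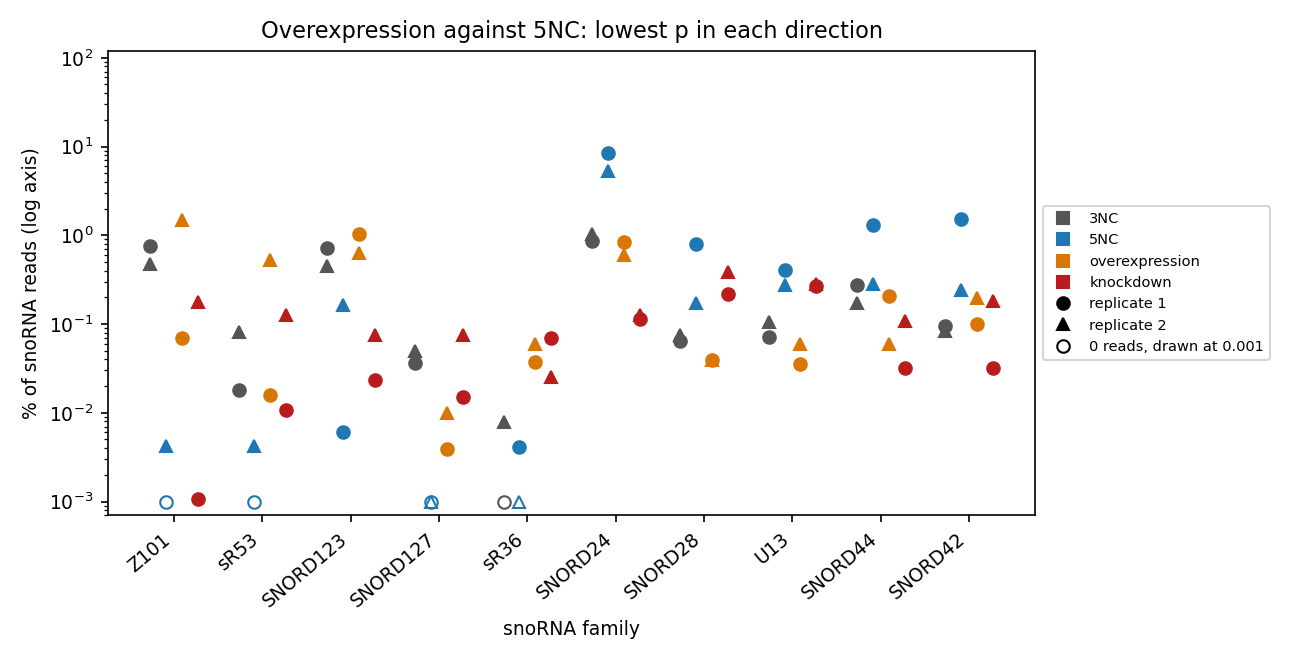
Percent of snoRNA reads (log axis) in every library for the 5 families with the lowest p in each direction of overexpression against 5NC; circles are replicate 1, triangles replicate 2, and open symbols mark 0 reads. SNORD24 stands at 8.40% and 5.25% in 5NC, with overexpression (0.835% and 0.606%) beside 3NC (0.859% and 1.04%).

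As shares of snoRNA reads, 37 families were higher and 55 lower in both overexpression libraries than in both 5NC libraries, where 3.99% and 4.43% of named features were. With at least 100 reads these were 9 and 35 of 104, against 17.6% and 20% of features of that depth, and 34 of the 55 lower families were C/D. In 5NC against 3NC 48 families were higher and 49 lower (4.18% and 6.18% of named features), 30 and 24 of the 106 deeper ones, against 21% and 29% of features of that depth. The first 5NC library alone was above the other 7 for 52 families and below them for 33, where 9.42% and 2.44% of named features were. With at least 100 reads these were 30 and 30 of 135, against 24% and 12.6% of features. Above were U3, SNORD50, SNORD24, SNORD99 and SNORD10, and below were SNORD104, SNORD74, SNORD66, SNORA74 and SNORA21. SNORD74, from GAS5, held 0.338% there, 4.70% in the other 5NC library and 0.602% to 2.29% elsewhere.

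All 8 families of the precursor processing list were tested, and 0 passed edgeR's test in any comparison; DESeq2 called U13 and SNORA62/SNORA6 higher in knockdown minus 3NC (adjusted p = 0.0189 and 0.0414). Their median log2 difference was -1.13 in overexpression minus 5NC (all features -0.19), 0.07 in knockdown minus 3NC (all features 0) and 0.24 in 5NC minus 3NC (all features 0). The knockdown value depended on the scaling and was -1.52, -1.58 and -1.24 with named totals, all reads and snoRNA reads as library size. Together they held 14% and 16.9% of snoRNA reads in 3NC, 36.3% and 12.1% in 5NC, 10.02% and 8.81% in overexpression, and 2.15% and 9.52% in knockdown, in each library mostly U3 and SNORD14. U3 had log2 differences of -1.96 ± 0.96, -0.22 ± 0.93 and 1.29 ± 0.94 in the 3 comparisons in that order, the knockdown value being -1.84, -1.91 and -1.57 under the other scalings. SNORD22, a processing snoRNA of SNHG1, held 0.153% to 1.03% outside knockdown and 0.0744% and 0.284% in it. SNORA63 held 0.0449% to 0.696% outside knockdown and 0.0404% and 0.109% in it. SNORA62/SNORA6 stood higher in knockdown as a share of snoRNA reads, at 0.333% and 0.251% in knockdown and at most 0.119% elsewhere. In RPM of all reads its second knockdown library was below the first 3NC library, so these groups overlapped. U8 had 5 to 28 reads in every library.

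Of the GAS5 list 8 of 10 members were in the table and 6 were tested, of the SNHG1 list 7 of 8 and 5, and of the RPL13A list 3 of 3 and 2; 0 of each passed edgeR's test in any comparison. DESeq2 called SNORD26 and SNORD28 of the SNHG1 list and SNORD35 of the RPL13A list higher in knockdown minus 3NC (adjusted p = 0.00406, 0.0176 and 0.0249), besides SNORD28 lower in overexpression minus 5NC. Median log2 differences in knockdown minus 3NC were 1.36 for GAS5, 0.32 for SNHG1 and 3.65 for RPL13A, and with snoRNA reads as library size they were -0.72, -1.41 and 1.43. The GAS5 and SNHG1 signs thus depended on the scaling. GAS5 families together held 1.36% and 1.35% of snoRNA reads in knockdown and 2.11% to 6.01% elsewhere. Without SNORD57 in the total they held 4.12% and 1.54% in knockdown and 2.18% to 6.23% elsewhere, so the first knockdown library was then not below the others. SNORD78 of this list held 0.0425% and 0.0669% in knockdown and 0.0795% to 0.733% elsewhere, but without SNORD57 in the total its 0.129% in the first knockdown library exceeded 0.0824% in the second overexpression library. SNORD47 overlapped at 0.263% and 0.460%. RPL13A families held 1.39% and 0.845% in knockdown and 0.377% to 0.515% elsewhere, mostly from Z195/SNORD33/SNORD32 with 1.27% and 0.686%. In RPM of all reads the RPL13A families held 199 and 3.15 in knockdown and 5.52 to 19.5 elsewhere. The second knockdown library was thus the lowest on that scale. SNHG1 families held 0.641% and 1.76% in knockdown and 0.944% to 2.66% elsewhere and overlapped.

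Imprinted snoRNAs, whose loci are known for brain and placenta expression, had few reads outside knockdown. Together they had 192 and 86 reads in knockdown, which was 0.204% and 0.719% of snoRNA reads. The second 3NC library had 62 and the others 0 to 7. In RPM of all reads these families held 29.1 and 2.68 in knockdown, 4.74 in the second 3NC library and 0 to 0.726 elsewhere. Knockdown and 3NC thus overlapped on that scale. Of 8 listed families 6 were in the table and 1, SNORD115, was tested. SNORD115 had 0 and 45 reads in 3NC, 0 and 0 in 5NC, 0 and 3 in overexpression, and 0 and 67 in knockdown, so it appeared only in second libraries of 3 groups. SNORD116 had 179 and 8 reads in knockdown, 4 in the second 3NC library and 0 elsewhere.

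Families with SCARNA names held 0.383% to 1.37% of snoRNA reads, and 10 of 16 were tested with 0 past edgeR's test. Cajal body RNAs with U names, such as U85 and U89, were counted with the U names. The median log2 difference of the SCARNA names in knockdown minus 3NC was -1.17 with TMM factors and -3.47 with snoRNA reads as library size. As a share of snoRNA reads SCARNA8 was, besides SCARNA3 and SCARNA20, below the other 6 libraries, with 26 and 0 reads in knockdown. In RPM of all reads only SCARNA3 and SCARNA20 were, and SCARNA8 overlapped. SCARNA2 held 0.132% and 0.560% in knockdown and 0.0411% to 0.146% elsewhere, and DESeq2 called it higher with an adjusted p of 0.0493.

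The 114 families named after other organisms held 19556 reads in all, and 19 were tested with 0 past edgeR's test, while DESeq2 called sR53 higher in overexpression minus 5NC (adjusted p = 0.0376). Rfam families can match a goat RNA that resembles the named one, and what these reads derive from was not tested. Their summed share was 11% and 10.3% in 3NC, 1.93% and 7.31% in 5NC, 7.78% and 23.8% in overexpression, and 1.13% and 6.36% in knockdown. The largest, snR60/Z15/Z230/Z193/J17, had 1165 and 1771 reads in 3NC, 2 and 1581 in 5NC, 1202 and 1097 in overexpression, and 6 and 145 in knockdown. A. fumigatus snoRNA Afu_294 had 948 and 1587 reads in 3NC, 7 and 1390 in 5NC, 950 and 1042 in overexpression, and 314 and 342 in knockdown. The ratio of the first to the second was 1.05 to 1.27 in 5 libraries, 0.286 in the first 5NC library, and 0.0191 and 0.424 in the knockdown libraries. Both families were close to 0 in the first 5NC library, with 2 and 7 reads. snR79 did not share that pattern, with 819 reads there and 42 to 1131 in the other libraries.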

How the data were processed

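Small RNA libraries of goat mammary gland cells were read from 1 table of 8 libraries. Per the file headers, the authors deposited a read count and a TPM value per feature and library; the tests used the counts, and the deposited TPM values were not used. The aligner, counting tool, genome build, strand and treatment of reads with several matches were not given in the sources used; hence members of close families are uncertain and no sequence or position is printed. Rows of the same name were summed, which left 4786 named features; 4 summed classes without a feature name (44.3% to 63.1% of a library's reads) stayed out of library sizes and tests. Shares use all reads or all snoRNA reads of a library. A row with a blank type was not counted as a snoRNA.

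The count model was edgeR 4.0.16 under R 4.3.3. Features were kept by filterByExpr (minimum count 10) and scaled by TMM, whose factors ran from 0.101 to 1.87. One robust quasi-likelihood fit held all 8 libraries; it had 4 residual degrees of freedom and a biological coefficient of variation of 1.20. Two-sided p-values were Benjamini-Hochberg adjusted over the 957 features kept, and the threshold was 0.05. The SE is approximate, derived from the F statistic. DESeq2 1.42.0, other scalings, no filter, a replicate block, fits to 4 libraries and leaving out each library were alternatives. The edgeR fit was tested on simulated counts with far less spread between libraries than the real ones. That check cannot speak of power or error rates at the spread seen here. Named are families past the test or, where fewer than 3 passed in a direction, the 5 with the lowest p, the 8 most abundant C/D and H/ACA families, and members of the lists; others were named after their values were seen. The members and lists were chosen with earlier results of these data known. Host genes and guide functions are background from human. The values of 1 host gene group are not reported here.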

Additional observations from a re-analysis of the deposited data

How the results depend on the processing

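The number of families past the adjusted threshold, 0 in each comparison, depended on the test. With DESeq2 it was 4 in overexpression minus 5NC, 24 in knockdown minus 3NC and 1 in 5NC minus 3NC. Of all features with an adjusted p, 39 of 716, 97 of 697 and 22 of 697 were called, in that order. With no filter it was 1 of 333 in knockdown minus 3NC (SNORD57), where 82 of 4786 features were called. In the other comparisons it was then 0. Leaving out a library leaves 1 in its group, so counts of families past the threshold are not listed for those fits. With the replicate number as a block, 2 of 165 families passed in knockdown minus 3NC, where 9 of 957 features did. These were SNORD55/SNORD39 and SNORD100, each with an edgeR adjusted p of 0.0481, and 0 families passed in the other comparisons. The replicate numbers are not known to mark shared cultures. Same-numbered libraries deviated together with correlations of -0.0128, 0.173 and 0.00079 in the order overexpression, knockdown and controls. The other scalings and the fits to 4 libraries gave 0. Where a library is left out, its group's lone library is assumed to vary like the other groups.

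The snoRNA share of knockdown over 3NC, 1.20 (log2), ran from -3.09 to 2.17 when each library was left out and was -0.28 without the most abundant family. For overexpression over 5NC it was -0.32 (-1.24 to 0.24), and for 5NC over 3NC 0.12 (-0.03 to 0.25). The H/ACA share of knockdown over 3NC, -1.55, was -0.57 without the most abundant family of each class, -0.61 without SNORD57 in the total (chosen after seeing the data), and -1.69 to -1.43 when each library was left out. It was 0.18 (-0.19 to 0.69) for overexpression over 5NC and -0.42 (-0.93 to -0.05) for 5NC over 3NC. Of 443 values of the 30 named log2 differences under the alternatives, 415 kept their side of the threshold, 28 passed it and 0 changed sign. A value can keep its side and still vanish. In 5NC minus 3NC the Fungal small nucleolar RNA U3 family (-8.17) and SNORD115 (-7.17) fell to 0 without the 1 3NC library that held their reads. The cause of the differences between tools was not tested. Depth limits families under about 100 reads, and the second overexpression library has 10061 snoRNA reads.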

Other observations

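DESeq2 called further families higher in knockdown than in 3NC that were not described above. SNORA24 held 0.0614% and 0.0208% of snoRNA reads in 3NC, 0.345% and 0.149% in 5NC, 0.0982% and 0.0795% in overexpression, and 0.322% and 0.301% in knockdown, so the first 5NC library stood as high as knockdown. SNORD88 had 0 and 2 reads in 3NC, 8 and 19 in 5NC, 0 and 4 in overexpression, and 338 and 4 in knockdown, so its difference came from the first knockdown library. SNORD69 had 6 and 26 reads in 3NC and 217 and 40 in knockdown, which was 0.231% and 0.335% of snoRNA reads in knockdown against at most 0.179% in the other 6 libraries.

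Some abundant families set the first 5NC library apart from its partner. SNORD66 held 0.122% of snoRNA reads there, 2.67% in the other 5NC library and 0.519% to 1.90% in the remaining 6. U89 held 0.133% there and 0.247% to 2.40% elsewhere. SNORD93 held 0.840% there and 0.0181% to 0.263% elsewhere. SNORD99 was high in both 5NC libraries, at 1.97% and 1.61%, against 0.329% to 1.08% elsewhere.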
